A study of Mus musculus with 4 samples.

Results

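AMKO and Ctrl LSK cells were compared 8 days after 5-fluorouracil (5FU), as the difference of log2 values, AMKO minus Ctrl, across all genes. The comparison took 2 of the 4 arrays of the series, 1 for each genotype at day 8, and the remaining pair, 1 Ctrl and 1 AMKO array at day 0 (basal), was read beside it. Each gene was represented by 1 probe set, the one with the highest mean when it had several. Of 22180 genes, the 14061 whose highest value over the 4 arrays reached 5.475, the median of all values and called the floor here, were kept.

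The cells were sorted from bone marrow for c-Kit and Sca-1 and against lineage markers (LSK), from C57/B6 mice that were male and 4 months old. The day 8 groups were Ctrl and AMKO mice given 150 mg/kg of 5FU, and the basal groups were Ctrl and AMKO mice of the same strain, sex and age. The series design gives the purpose of the dose as the activation of stem cells. AMKO is used as a genotype label because the labels do not spell it out. Without the name of a targeted gene, the labels could not be checked against its level. The labels do not say what the Ctrl mice carry, or how many mice gave the RNA of an array. With 1 array a side there is no replicate error and no test, and every statement below is about the size of a difference between these arrays.

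LSK cells hold hematopoietic stem cells and multipotent progenitors, and mature blood cells are removed from them in the sort by a cocktail of lineage antibodies. 5FU kills dividing progenitors through its metabolites, which block thymidylate synthesis and enter RNA, and the surviving stem cells then divide and rebuild the marrow. Immediate early genes, which encode AP-1 and NR4A transcription factors and their feedback regulators, are transcribed within minutes of a stimulus and are known to answer growth signals as well as stress.

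Across all kept genes the day 8 difference had a median of 0.06 and a standard deviation of 0.518 on the log2 scale, and 90.5% of genes differed by less than 1.5-fold. With that median above 0, most kept genes lay above 0, and the counts above 0 given for lists below are to be read beside this. The lowest percentile of genes ended at -2.09 and the highest began at 0.90, so the long tail lay on the side of genes lower in AMKO. At basal the standard deviation was 0.331 and the same percentiles were -0.91 and 0.73. A 2-fold size was reached by 104 genes higher in AMKO (0.74%) and by 370 lower (2.63%) at day 8. At basal the counts were 32 (0.228%) and 98 (0.697%). The 4 arrays had medians between 5.43 and 5.55.

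The sorted identity was read first. Kit, the receptor for stem cell factor and a marker of the sort, had 11.08 in the Ctrl and 11.16 in the AMKO array of day 8 (log2), and Cd34, a sialomucin of progenitors, had 10.38 and 10.36. Neither differed by more than 0.08. A list of 13 marker genes of stem and progenitor cells was read beside them. The sort itself is described only by c-Kit, Sca-1 and lineage markers. Of the 13 genes 10 were kept, and 2 were at least 2-fold lower in AMKO at day 8, against 2.63% of all kept genes. They were Il7r and Fcgr3 (8.41 in Ctrl and 5.74 in AMKO). Flt3, Procr, Slamf1 and Cd48 differed by -0.91, 0.74, 0.50 and -0.47. Ly6a, which encodes Sca-1, had no probe set of its own in the annotation used. Of 12 listed lineage cocktail genes 6 were kept, and 3 of them, Itgam, Ly6g and Il7r, were high in the Ctrl day 8 array alone. Ly6g and Il7r were kept only through that array, so this pattern is built in for them. Itgam, the alpha chain of the myeloid integrin Mac-1, had 5.61 in Ctrl basal, 6.20 in AMKO basal, 9.93 in Ctrl day 8 and 6.40 in AMKO day 8. Ly6g, a neutrophil surface protein, had 4.84, 5.13, 8.39 and 4.85 in the same order, which is kept for all sets of 4 values below. Ptprc, the CD45 antigen of all leukocytes, had 10.04, 9.91, 10.60 and 10.16, Cd5 of T cells had 5.73, 5.92, 6.10 and 5.98, and Klrb1c, an NK cell receptor, had 6.07, 6.31, 5.14 and 5.50, so these 3 were not high in that array alone. Cd3e, a T cell receptor subunit, lay under the floor in all 4 arrays, between 5.17 and 5.39. Xist, the RNA that coats the inactive X chromosome in female cells, had 4.23, 4.41, 7.65 and 3.97, although the labels give male mice. The Y-linked genes Eif2s3y, Kdm5d and Uty lay between 7.45 and 9.36 in every array. Counted over all genes, 129 reached the floor in the Ctrl day 8 array alone and were at least 2-fold above every other array there, against 5 in the AMKO day 8 array, 14 in Ctrl basal and 4 in AMKO basal.

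Genes of mature neutrophils, monocytes and the B lineage were therefore taken apart, as 146 listed genes of which 115 were kept, and 50 of these were kept only through the Ctrl day 8 array. None was at least 2-fold higher in AMKO at day 8 and 75 were at least 2-fold lower, against 0.74% and 2.63% of all kept genes. For the 50 a lower AMKO value is built in. The set was also taken apart because such genes were high in Ctrl day 8, so its counts and levels only describe the arrays. The median level of the 115 genes was 5.36, 5.46, 7.63 and 5.48 in the 4 arrays. The sum of their log2 levels was 636.36, 641.36, 921.71 and 662.76. The Ctrl day 8 array stood above the other 3, which were close to each other. With RNA of a whole sorted sample, fewer cells of a type and less RNA of its genes per cell cannot be told apart.

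**Figure D1:**
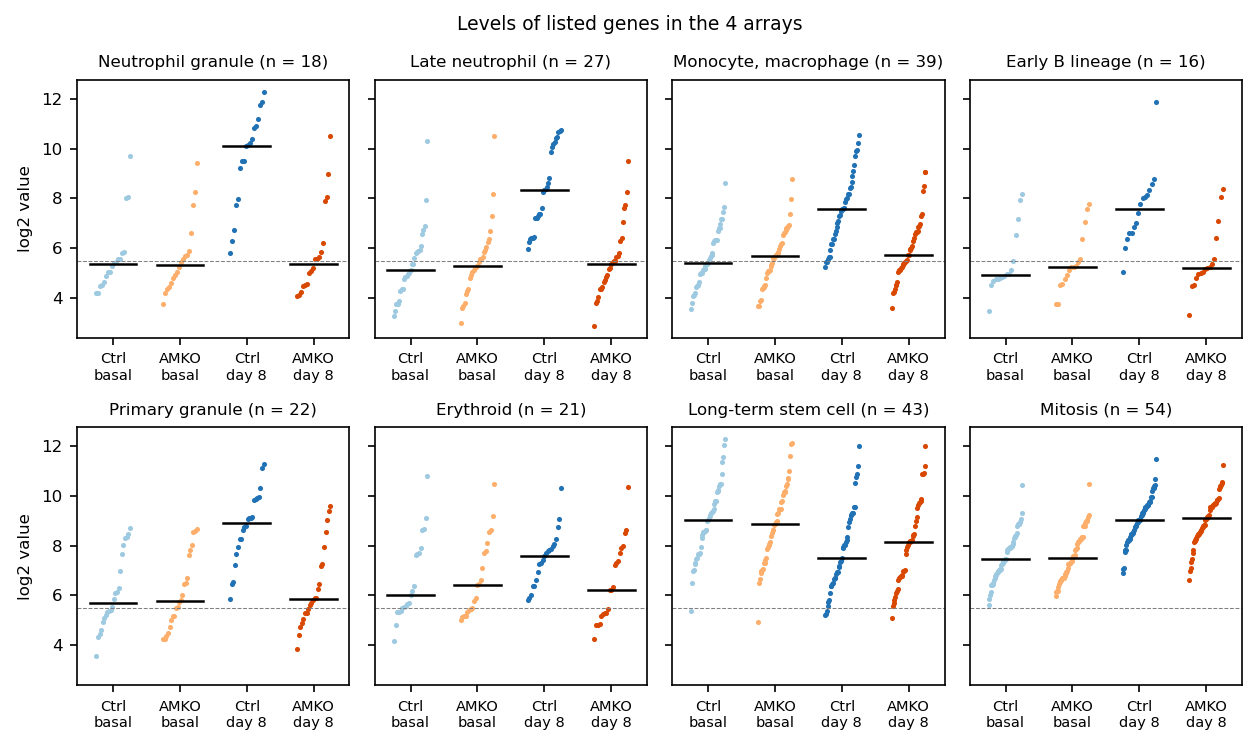
Log2 levels of the kept members of 8 gene lists in each of the 4 arrays, 1 point per gene, with the black line at the median and the dashed line at the floor of 5.475. Neutrophil granule genes had a median of 10.12 in Ctrl day 8 and of 5.33 to 5.38 in the other arrays, while mitosis genes had medians of 9.04 and 9.10 in the day 8 arrays.

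The mature neutrophil set had the most kept genes. Of 50 listed genes, 45 were kept, and 37 of the 45 were at least 2-fold lower in AMKO at day 8, with a median difference of -2.81 against 0.09 at basal. The share of 2-fold lower genes over all kept genes was 2.63%. Of the 45, 22 were kept only through Ctrl day 8, so a lower AMKO value is built in for these. Over members at or above the floor in both day 8 arrays the medians were -1.85 for secondary granule and -1.73 for late neutrophil genes. Secondary granule genes, made late in neutrophil maturation, led the set. Camp, the cathelicidin antimicrobial peptide, had 5.05, 4.20, 12.29 and 4.13. Its AMKO value lay under the floor, so it was at least 113-fold lower there, taking the floor as the AMKO level. Ltf, lactoferrin, had 5.28, 5.23, 11.74 and 5.20 and was at least 76.9-fold lower. Ngp, the neutrophilic granule protein, had 5.81, 5.56, 11.89 and 5.63, a difference of -6.26. In each of these genes the Ctrl day 8 array was high and the other 3 were low. The remaining genes of this list with the highest Ctrl day 8 levels were Mmp8, a collagenase, with 11.19 in Ctrl and 5.10 in AMKO, Hp, haptoglobin, with 10.40 and 5.86, Lcn2, a siderophore-binding lipocalin, with 10.24 and 5.58, Anxa1 and Cyba. Anxa1, which encodes annexin A1, differed by -1.85 (10.84 and 8.99). Cyba, the small subunit of the phagocyte oxidase, differed by -0.39 and had 9.69 and 9.44 at basal, so it was high in all 4 arrays.

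Genes of later neutrophils followed the same order of arrays. S100a8 and S100a9, the subunits of calprotectin, had 10.69 and 10.71 in Ctrl day 8 against 5.48 and 5.67 in AMKO, 37.0-fold and 32.9-fold lower. Retnlg, a resistin-like protein, had 10.43 against 4.35. Mmp9, gelatinase B, had 10.08 against 5.15. Fpr2, a formyl peptide receptor, had 10.19 against 3.87. Csf3r, the G-CSF receptor, which progenitors also carry, had 10.31, 10.49, 10.46 and 9.52. There the AMKO day 8 array was the lowest and the Ctrl day 8 array was level with both basal arrays.

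The 2 secondary granule promoters below are shown as examples of the motif below among the 3 genes of the list highest in Ctrl day 8, and the window of the third, Camp, held no match. Capitals mark matches, on the strand shown or as the reverse complement, to TTNNGNAA, the core of the sites bound by C/EBP factors, which drive granulocyte genes. The sequences are the 250 bases before the gene start from RefSeq, build GRCm38.p6, chr9:111019042-111019291 on the + strand for Ltf and chr9:110419558-110419807 on the + strand for Ngp.
Ltf: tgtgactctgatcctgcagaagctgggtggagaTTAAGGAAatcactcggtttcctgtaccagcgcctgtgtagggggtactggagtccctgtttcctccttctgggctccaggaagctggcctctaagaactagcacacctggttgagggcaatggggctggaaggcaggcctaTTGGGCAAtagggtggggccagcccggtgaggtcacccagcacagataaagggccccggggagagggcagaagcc
Ngp: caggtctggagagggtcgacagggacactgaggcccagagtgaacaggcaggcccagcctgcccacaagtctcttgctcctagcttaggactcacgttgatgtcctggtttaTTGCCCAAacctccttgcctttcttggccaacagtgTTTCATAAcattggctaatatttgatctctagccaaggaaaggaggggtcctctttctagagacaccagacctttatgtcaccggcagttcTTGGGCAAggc
The matches begin at -217 and -75 relative to the start in Ltf, and at -138, -102 and -11 in Ngp. In windows from 250 bases before to 50 after the start, searched on both strands, 10 of 15 secondary granule genes (66.7%) and 17 of 25 late neutrophil genes (68.0%) held the motif. The share was 40.7% of all 32851 windows and 35.8% of the 11022 kept genes with a window. A match is a description of the letters and not a binding site.

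The monocyte and macrophage list had 39 of 51 genes kept, 21 at least 2-fold lower and a median difference of -1.12 against -0.04 at basal. The share of 2-fold lower genes over all kept genes was 2.63%. Of the 39, 14 were kept only through Ctrl day 8, so a lower AMKO value is built in for these. Ly6c2, a surface protein of inflammatory monocytes, had 4.43, 4.35, 9.92 and 5.06. Lilrb4a, an inhibitory receptor, had 3.54, 3.68, 10.56 and 4.23. Fn1, fibronectin, had 6.33, 5.86, 10.24 and 6.70. Both basal arrays and AMKO day 8 were low for all 3. Other members were high in both day 8 arrays. Ctss, a lysosomal protease, had 7.17, 6.62, 9.70 and 9.07, and Ms4a6c had 5.72, 5.34, 9.35 and 9.06. Their AMKO minus Ctrl differences were -0.63 and -0.29. The median of the list was -0.63 over the members at or above the floor in both day 8 arrays, and -0.77 without a floor.

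The B-lineage lists had 31 of 45 genes kept, 17 of them at least 2-fold lower, with a median of -1.54 against -0.06 at basal. Of all kept genes, 2.63% were at least 2-fold lower. Of the 31, 14 were kept only through Ctrl day 8, so a lower AMKO value is built in for these. Over the members at or above the floor in both day 8 arrays the median was -0.47 for the early and -0.48 for the mature B-lineage list. Ighm, the immunoglobulin mu heavy chain, had 7.18, 7.06, 11.86 and 7.11. Its 7 probe sets all had negative differences, from -5.46 to -0.14. The B-cell transcription factors Ebf1 (4.68, 4.92, 8.57 and 5.24) and Pax5 (4.98, 5.28, 8.12 and 5.37) were above the floor in Ctrl day 8 alone. Il7r, the interleukin-7 receptor, had 3.46, 3.74, 7.42 and 3.32. Rhoh, a GTPase of lymphocytes, had 8.19, 7.57, 8.07 and 8.38 and did not share that pattern. Bank1, a B-cell scaffold protein, had 7.97 in Ctrl and 7.34 in AMKO at day 8, both above the basal values of 5.89 and 5.50.

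**Figure D2:**
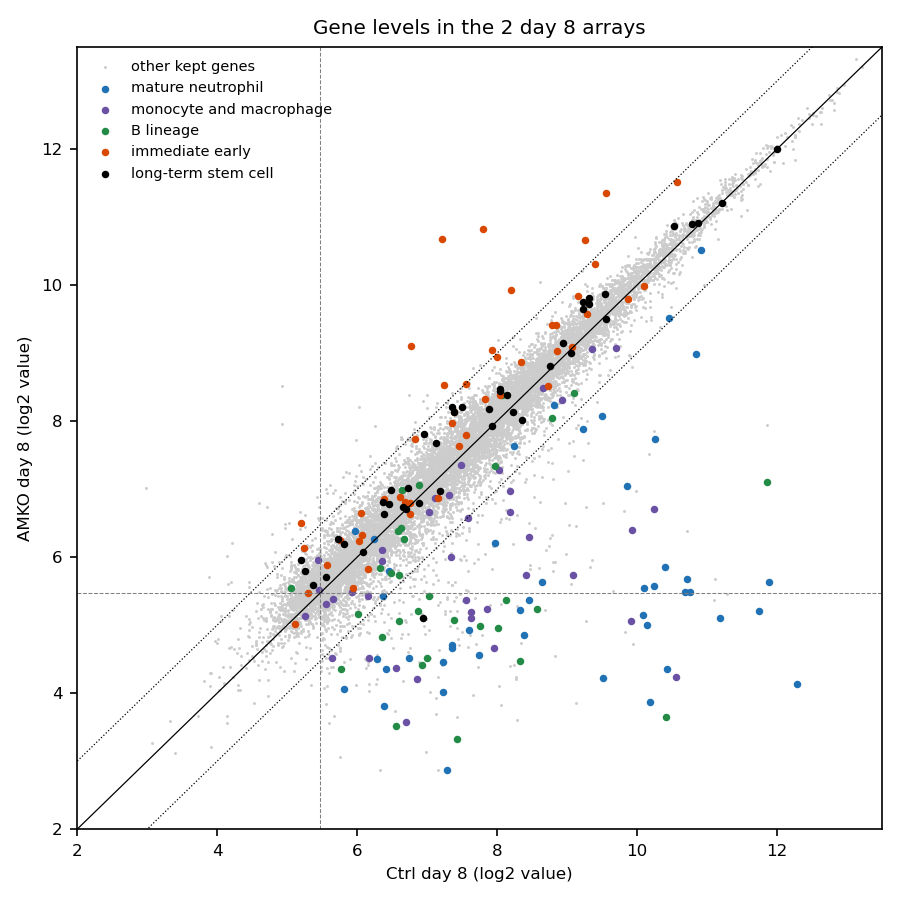
Log2 level of every kept gene in the Ctrl day 8 array (horizontal) against the AMKO day 8 array (vertical), with the line of equal values, dotted lines at 2-fold and dashed lines at the floor of 5.475. Coloured points are listed genes, and the neutrophil, monocyte and B-lineage points lie below the lower dotted line for 75 of 115 genes. Of these 115, 50 were kept only through Ctrl day 8. On or above the upper dotted line lie 10 of 46 immediate early genes.

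Lists of other blood cell types were read next, beside the 2.63% of all kept genes that were at least 2-fold lower. The primary granule list, genes of myeloblasts and promyelocytes, had 22 of 23 genes kept, 6 of them only through Ctrl day 8, and 13 were at least 2-fold lower. Its median was -2.21 against -0.04 at basal, and -0.82 over the 14 members at or above the floor in both day 8 arrays. Elane, neutrophil elastase, had 5.54, 5.80, 11.29 and 5.45 and was at least 56.3-fold lower. Mpo, myeloperoxidase, had 6.08, 6.01, 11.11 and 5.68, a difference of -5.43. Fcnb, a ficolin, had 5.09, 5.16, 9.83 and 4.90. The median of the 22 levels was 8.93 in Ctrl day 8 and between 5.70 and 5.84 in the other 3 arrays.

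The Mpo promoter is shown with its match to GAGGAAGT, a site of the myeloid factor PU.1, in capitals. It is chr11:87793534-87793783 on the + strand of GRCm38.p6, from RefSeq.
Mpo: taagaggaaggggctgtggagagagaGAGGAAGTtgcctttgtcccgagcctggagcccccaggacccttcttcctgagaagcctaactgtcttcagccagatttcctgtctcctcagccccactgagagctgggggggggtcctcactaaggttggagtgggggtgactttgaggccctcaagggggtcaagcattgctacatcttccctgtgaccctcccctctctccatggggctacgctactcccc
The match begins at -224, and Elane held one at -85. Of 17 primary granule genes with a window, 5 (29.4%) held this motif on either strand, against 3.20% of all windows and 3.67% of those of kept genes.

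Erythroid genes had 21 of 30 kept, 3 of them only through Ctrl day 8, with a median of -0.58 and 7 at least 2-fold lower. The median was -0.13 over the 12 members at or above the floor in both day 8 arrays. Car1, carbonic anhydrase 1, had 5.69, 5.33, 8.27 and 4.23. Slc4a1, the band 3 anion exchanger, had 5.33, 5.77, 8.05 and 5.31. Both were above the floor in Ctrl day 8 and under it in AMKO day 8. Of 20 eosinophil, basophil and mast cell genes only 7 were kept, 5 of them through Ctrl day 8 alone, and 4 were at least 2-fold lower, with a median of -1.07 that was -0.20 without a floor. Mcpt8, a basophil protease, had 4.54, 4.49, 7.70 and 4.72. T and NK cell genes had 14 of 31 kept, 5 of them only through Ctrl day 8, and 5 were at least 2-fold lower. The median was -0.24, and -0.16 over the 6 at or above the floor in both day 8 arrays. Il2rb, an interleukin-2 receptor chain, was kept only through Ctrl day 8 and was at least 3.49-fold lower (7.28 and 5.41 at day 8).

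Dendritic cell and MHC class II genes had 15 of 19 kept, 1 of them only through Ctrl day 8, a median of -0.42 and 4 at least 2-fold lower. Their patterns over the arrays were not alike. Siglech, a receptor of plasmacytoid dendritic cells, had 4.62, 5.43, 7.50 and 4.90, and H2-DMb2, a chaperone of peptide loading, had 6.66, 6.54, 8.74 and 6.16. The classical class II chains were instead lower in AMKO at both times. H2-Aa had 9.12, 8.41, 8.52 and 7.21, H2-Eb1 had 8.78, 8.25, 8.64 and 7.59, and H2-Ab1 had 10.19, 9.41, 10.13 and 9.47. For these chains the Ctrl day 8 value did not exceed the Ctrl basal value, and the AMKO minus Ctrl difference was -0.71, -0.53 and -0.78 at basal and -1.31, -1.05 and -0.66 at day 8.

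Without the 115 genes taken apart, 13946 genes remained, of which 104 (0.746%) were at least 2-fold higher in AMKO and 295 (2.12%) at least 2-fold lower, and at basal the counts were 31 (0.222%) and 98 (0.703%). When both day 8 values had to reach the floor as well, the counts were 66 (0.544%) and 144 (1.19%) of 12138 genes. The 295 lower genes had median levels of 5.63, 5.74, 7.34 and 5.43 in the 4 arrays, 151 of them lay under the floor in AMKO day 8, and 97 were above it in Ctrl day 8 alone. These genes were picked by the day 8 difference, so a Ctrl day 8 median above that of AMKO day 8 is built in. Leaving out the 33 that belong to the lists of other blood cell and tissue types gave 262 genes with medians of 5.71, 5.80, 7.25 and 5.47. The 104 higher genes had medians of 6.73, 6.64, 5.86 and 7.11, with 38 under the floor in Ctrl day 8.

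The lowest 15 named genes with both day 8 values at or above the floor were mostly genes of myeloid cells. After Mpo came Plbd1, a phospholipase B-like enzyme, with 6.67, 6.70, 10.72 and 6.38. Cd33, a sialic acid-binding receptor of myeloid cells, had 5.16, 5.58, 9.35 and 5.96. Tyrobp, the signalling adaptor DAP12, had 5.42, 5.57, 9.99 and 6.97. Trem3 (-4.16), Mcemp1 (-3.47), Ms4a3 (-3.45), Pld4 (-3.15), the protease Ctsg (-3.0), Rasgrp4 (-2.90), AB124611 (-2.88), the Src-family kinase Fgr (-2.76) and Ceacam1 (-2.71) had Ctrl day 8 as their highest array too, as had the immunoglobulin kappa variable gene Igkv5-43 (-3.92). A second probe set of Rasgrp4 gave 0.14, and the mean over 3 probe sets of Igkv5-43 was -1.55. Pde2a, a cyclic nucleotide phosphodiesterase, differed from the rest. It had 8.89, 8.76, 8.99 and 6.05, so the Ctrl day 8 array was level with both basal arrays and the AMKO day 8 array was 7.67-fold below Ctrl. Among genes above the floor in Ctrl day 8 alone of that pair, Elane, Ly6a2 (11.10 and 5.37), Clec12a, Igsf6, Fcnb and Il1f9 had the lowest differences.

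Of the 42 lists, immediate early genes had the most members past 2-fold on the higher side. Of 47 listed genes 46 were kept, none of them only through the Ctrl day 8 array, and 10 were at least 2-fold higher in AMKO while none was 2-fold lower. The background share of 2-fold higher genes was 0.74%. The median difference was 0.49 at day 8 and 0.32 at basal, against medians of 0.06 and 0 over all kept genes, and 38 of the 46 had a difference above 0 at day 8. The list's median level was 7.48 in Ctrl basal, 7.78 in AMKO basal, 7.43 in Ctrl day 8 and 8.36 in AMKO day 8.

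Among AP-1 subunits, Fosb had 9.99, 10.89, 7.21 and 10.67, 11.0-fold higher in AMKO at day 8. The Ctrl day 8 array was the low one and the other 3 lay within 0.90 of each other. Fos had 9.62, 10.31, 8.20 and 9.93, and Jun had 11.31, 11.65, 9.56 and 11.35, again with Ctrl day 8 lowest. Junb had 9.98, 10.55, 9.40 and 10.31, a difference of 0.91. These 4 encode partners in the same dimeric transcription factor, and in each the AMKO array was above the Ctrl array at both times. Jund and Fosl2, also of this list, are not described, so the 4 do not stand for all AP-1 subunits. Junb and, of the genes below, Zfp36, Cd69, Rgs1, Dusp5, Dusp2, Dusp6, Socs3, Klf4, Ccn1 and Egr2 fell outside the naming rule and were chosen after their values were seen.

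Nr4a1 and Nr4a2, orphan nuclear receptors of the NR4A family, had another order. Nr4a3 of the same list was not among its 6 members with the largest differences and is not described, so Nr4a1 and Nr4a2 do not stand for the family. Nr4a1 had 8.75, 9.65, 7.80 and 10.82, 8.11-fold higher in AMKO at day 8, and Nr4a2 had 7.51, 8.60, 6.77 and 9.11, 5.06-fold higher. In both, the AMKO day 8 array was the highest of the 4 and the Ctrl day 8 array the lowest. Egr1, a zinc finger transcription factor, had 8.57, 8.92, 6.82 and 7.73. It was lower at day 8 than at basal in both genotypes, and 0.91 higher in AMKO than in Ctrl at day 8.

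Other members of the list included regulators that dampen signalling, which were not all alike. Dusp1, a MAP kinase phosphatase, had 10.33, 10.80, 9.25 and 10.66, 2.66-fold higher at day 8. Dusp5, a phosphatase of ERK, had 6.91, 7.27, 7.55 and 8.55. Zfp36, tristetraprolin, which destabilizes cytokine transcripts, had 11.20, 11.99, 10.57 and 11.52. Ppp1r15a, the GADD34 subunit that directs dephosphorylation of eIF2 alpha, is in none of the lists and had 9.85, 10.34, 8.61 and 10.05. Cd69, a surface protein that appears early after lymphocyte activation, had 5.82, 6.21, 7.24 and 8.53, and Rgs1, a regulator of G-protein signalling, had 9.11, 8.91, 7.93 and 9.04. Ptgs2, the inducible cyclooxygenase, had 5.39, 6.19, 5.20 and 6.50, with both Ctrl values under the floor. Dusp2, Dusp6 and Socs3, further inhibitors of signalling, had differences of 0.53, -0.07 and 0.26. Klf4, a zinc finger factor, had 7.15 in Ctrl and 6.87 in AMKO at day 8, and Ccn1 (-0.40) and Egr2 (-0.34) had the lowest differences.

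Beside the immediate early genes, of which 38 of 46 were lower in Ctrl than in AMKO at day 8, the mature neutrophil genes had a median level of 8.81 there and of 5.37 in AMKO day 8. Their part in the immediate early differences was not tested. At basal, 3 immediate early genes were at least 2-fold higher in AMKO, against 0.228% of all kept genes.

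**Figure D3:**
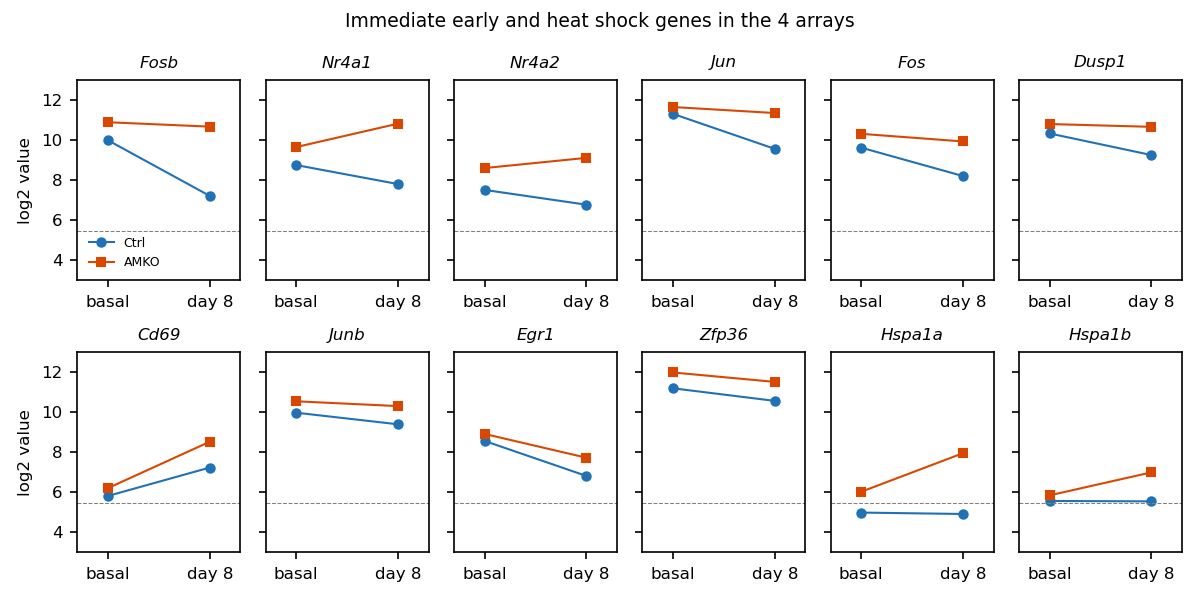
Log2 levels of 10 immediate early and 2 heat shock genes at basal and day 8, with Ctrl as blue circles and AMKO as orange squares, 1 array per point, and the dashed line at the floor of 5.475. The AMKO point lies above the Ctrl point at both times for all 12 genes, and at day 8 the gap is 3.46 for Fosb and 3.02 for Nr4a1, while both Ctrl points of Hspa1a lie under the floor. The genes shown were picked, Junb, Cd69 and Zfp36 after their values were seen. Of the 46 kept immediate early genes, 38 were higher in AMKO at day 8 and 8 lower, and 39 were higher at basal.

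Stress chaperone genes were divided. Hspa1a and Hspa1b encode the inducible HSP70 proteins. Hspa1a had 4.99, 6.03, 4.92 and 7.96. Its Ctrl day 8 value lay under the floor, so it was at least 5.60-fold higher in AMKO. Hspa1b had 5.57, 5.85, 5.55 and 7.0. The genes are near-identical copies whose probe sets can share signal, so how the difference divides between them is uncertain. Hsf2, a heat shock transcription factor, had 5.88, 5.83, 4.97 and 6.48. Over the whole list, 26 of 32 genes were kept. Of these, 3 were at least 2-fold higher and none was 2-fold lower, against 0.74% and 2.63% of all kept genes. The list's median was 0.13 at day 8 and -0.04 at basal. The next members were smaller in size, Dnajb1, a co-chaperone of HSP70, at 0.51 and Chordc1 at -0.49.

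The promoters of Hspa1a and Dusp1 are shown as examples of genes that differed at least 2-fold and held a match to a searched motif. No response to heat or to cAMP was measured here. Capitals mark GAANNTTC, a heat shock element core, in Hspa1a and TGACGTCA, the cAMP response element, in Dusp1. Both are the 250 bases before the start from RefSeq, build GRCm38.p6, chr17:34972157-34972406 on the - strand for Hspa1a and chr17:26508473-26508722 on the - strand for Dusp1.
Hspa1a: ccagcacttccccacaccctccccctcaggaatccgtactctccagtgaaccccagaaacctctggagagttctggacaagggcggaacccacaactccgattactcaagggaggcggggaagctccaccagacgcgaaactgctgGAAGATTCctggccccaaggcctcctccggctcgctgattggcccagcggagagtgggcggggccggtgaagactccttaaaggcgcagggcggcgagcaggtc
Dusp1: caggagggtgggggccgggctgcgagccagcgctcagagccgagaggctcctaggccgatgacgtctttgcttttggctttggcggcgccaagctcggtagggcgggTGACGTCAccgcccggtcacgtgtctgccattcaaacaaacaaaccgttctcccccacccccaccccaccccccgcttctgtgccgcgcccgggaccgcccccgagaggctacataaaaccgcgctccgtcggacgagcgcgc
The matches begin at -104 in Hspa1a and at -143 in Dusp1. The Hspa1b stretch differed from that of Hspa1a at 3 of 250 bases and held the same match. In the windows from 250 before to 50 after the start, 9 of 22 heat shock genes (40.9%) held GAANNTTC, against 7.86% of all windows and 6.97% of those of kept genes. Of 34 immediate early genes with a window, 4 held TGACGTCA, against 1.79% of all windows and 3.23% of those of kept genes, and 3 held a CArG box, the site of serum response factor, against 1.63% and 1.54%. The windows of Fosb, Fos, Nr4a1 and Nr4a2 held none of the 5 motifs searched.

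The other genes with the highest differences belonged to no common list. H2aw, a histone H2A gene, had 6.89, 7.59, 6.03 and 8.21. Histone genes have near-identical copies, so its signal may be shared. Coq10b, a coenzyme Q-binding protein of mitochondria, had 6.03, 5.67, 5.98 and 7.72 and was high in AMKO day 8 alone. Vcpkmt, a lysine methyltransferase, had 7.19, 6.70, 7.0 and 8.39 and shared that pattern. Car5b, a mitochondrial carbonic anhydrase, had 8.17, 7.95, 6.25 and 7.93, so the Ctrl day 8 array was the low one. Map9, Pls1 and Mapk12 were higher by 1.45, 1.37 and 1.37, and in all 3 Ctrl day 8 was the lowest array. Among genes under the floor in Ctrl day 8, Sva, a seminal vesicle antigen gene, had 3.10, 2.68, 2.98 and 7.02, at least 2.92-fold higher. Srl, a sarcoplasmic reticulum protein, was at least 2.40-fold higher, Pdgfd, a growth factor, at least 2.27-fold and Ttc26 at least 1.82-fold.

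Genes of long-term stem cells were mostly somewhat higher in AMKO at day 8, by less than 2-fold. Of 45 listed genes 43 were kept, and 32 of them had a difference above 0. None was 2-fold higher and 1 was 2-fold lower, against 0.74% and 2.63% of all kept genes. The median was 0.28 at day 8 and -0.07 at basal, against 0.06 and 0 over all kept genes. The median level was 9.03 and 8.87 at basal and 7.50 and 8.13 at day 8, so both genotypes were lower at day 8 and Ctrl was the lower of them. Procr, the endothelial protein C receptor that marks stem cells, had 9.03, 8.83, 7.39 and 8.13. Trpc6, a cation channel, had 9.33, 8.87, 6.96 and 7.81. Slamf1, the CD150 antigen used to sort stem cells, had 9.79, 10.17, 9.31 and 9.81. Krt18, a keratin, had 9.01, 8.95, 7.36 and 8.20, and its difference of 0.84 became 0.33 with its probe sets averaged. Ctnnal1 was higher by 0.71, Gpr183 by at least 1.39-fold, and Ifitm1, an interferon-induced membrane protein, was lower by at least 2.76-fold (6.94 and 5.11). Ifitm1 was kept only through Ctrl day 8, so a lower AMKO value is built in for it.

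Transcription factors of stem cells as a list lay at the background, with 36 of 38 kept, a median of 0.06 and no gene past 2-fold. Gata2, a zinc finger factor required by stem cells, had 10.25, 10.38, 9.23 and 9.75. Nkx2-3, Tcf15 and Id1 were higher by 0.55, 0.50 and 0.67, and Cebpa, a myeloid factor, had 5.87 in Ctrl and 5.30 in AMKO, under the floor. Of 20 Hox genes of the A and B clusters, 14 were kept and 11 had a difference above 0. The median was 0.27 at day 8 and 0.03 at basal, against 0.06 and 0 over all kept genes. Hoxb6 had 9.08, 9.48, 6.03 and 6.73, Hoxb9 had 7.37, 6.85, 6.04 and 6.77, and Hoxb5 had 7.67, 7.88, 6.37 and 6.81. All 3 were lower at day 8 in both genotypes, with Ctrl the lower array.

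The Ctrl day 8 array that was lower in these stem cell genes was also the array with the high neutrophil, monocyte and B-lineage levels, whose summed log2 levels were 921.71 in Ctrl and 662.76 in AMKO. Their part in the stem cell differences was not tested. Kit and Cd34 differed by 0.08 and -0.02 between the same arrays.

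**Figure D4:**
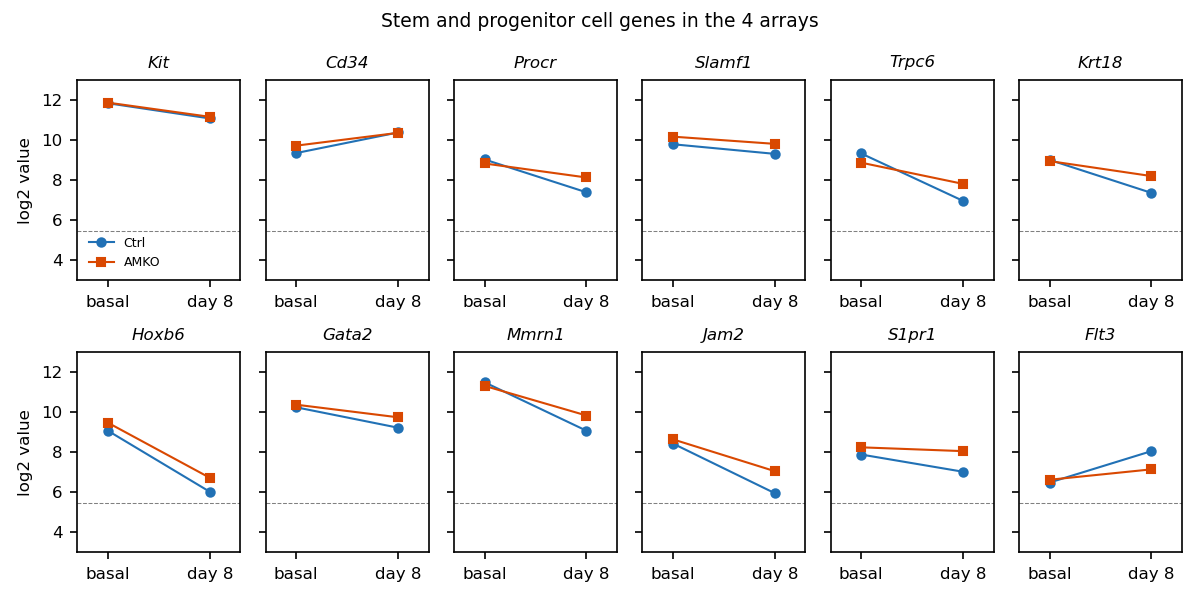
Log2 levels of 12 stem and progenitor cell genes at basal and day 8, with Ctrl as blue circles and AMKO as orange squares, 1 array per point, and the dashed line at the floor of 5.475. Kit and Cd34 coincide at day 8, while Procr, Trpc6, Krt18, Jam2 and S1pr1 lie 0.74 to 1.10 higher in AMKO and Flt3 differs by -0.91.

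Lymphoid priming genes had 20 of 25 kept, 6 of these only through Ctrl day 8, and 7 at least 2-fold lower, against 2.63% of all kept genes. The median was -0.40 at day 8 and 0.12 at basal, and -0.15 over the members at or above the floor in both day 8 arrays. Flt3, the cytokine receptor of lymphoid-primed progenitors, had 6.49, 6.63, 8.06 and 7.15, so it was higher at day 8 in both genotypes and 1.88-fold lower in AMKO. Ly86, a partner of the receptor CD180, had 4.19, 4.48, 7.04 and 4.52. Dntt, terminal transferase, had 4.77, 4.52, 6.36 and 4.82. Ighm, Il7r, Dntt and Ikzf3 of this list also stand in the B-lineage lists, so the lists overlap. Cd48, a SLAM-family protein of committed progenitors, had 4.99, 5.15, 9.96 and 9.49 and was high in both day 8 arrays.

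Receptors for cytokines had 37 of 42 kept and a median of -0.05. Besides Il7r, 2 were at least 2-fold lower. Il6ra, the interleukin-6 receptor, had 8.36, 8.14, 9.10 and 7.48, and Csf1r, the receptor of macrophage growth factor, had 5.36, 5.61, 7.34 and 6.0. In adhesion and homing, 31 of 32 were kept and the median was -0.03, or 0.01 with probe sets averaged. Jam2, a junctional adhesion molecule, had 8.44, 8.65, 5.96 and 7.06, and S1pr1, the sphingosine 1-phosphate receptor that guides exit to blood, had 7.89, 8.25, 7.03 and 8.06. Both were at least 2-fold higher in AMKO, with the lowest level in Ctrl day 8, but S1pr1 (1.03) fell under 2-fold after quantile normalization (0.98). The leukocyte integrin chains Itgal (8.67 and 7.79) and Itgb2 (9.61 and 8.75) were lower in AMKO, and Vcam1 (6.75 and 5.56) was 2.28-fold lower. Megakaryocyte genes had a median of 0.09, with the platelet chemokine Ppbp at least 2.14-fold higher and Thbs1, thrombospondin 1, 3.48-fold lower (7.96 and 6.16). Mmrn1, multimerin, had 11.50, 11.32, 9.08 and 9.84. Endothelial genes had a median of 0.14, and Kdr, a VEGF receptor, had 7.92, 7.19, 5.06 and 5.86.

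Cell cycle genes were nearly level between the genotypes at day 8. Of 55 mitosis genes 54 were kept, none differed by 2-fold, the median was 0.02 (-0.01 after quantile normalization) and the range -0.47 to 0.40. Their median level was 7.47 and 7.52 at basal and 9.04 and 9.10 at day 8, high at day 8 in both. Mki67, a proliferation marker, had 10.44, 10.47, 11.50 and 11.26. Cdc25c, a phosphatase of mitotic entry, and Ect2, a cytokinesis factor, marked the ends of the range at -0.47 and 0.40. DNA replication genes had 49 of 51 kept, none past 2-fold, a range of -0.43 to 0.46 and a median of 0.17. The helicase subunit Mcm4 had 8.54, 8.61, 9.64 and 10.02. Tyms, thymidylate synthase, the enzyme that a 5FU metabolite inhibits, had 8.69, 8.59, 9.35 and 9.25, and the list of 5FU metabolism and drug transport genes had a median of 0.12 with none of 25 past 2-fold.

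Among cell cycle regulators, Cdkn1a, the p21 inhibitor, stood out with 7.25, 7.68, 7.65 and 8.78, 2.19-fold higher in AMKO at day 8. The list it came from had 32 of 35 kept, a median of 0.10 and no other gene past 2-fold. Cdkn1b, the p27 inhibitor, differed by -0.59. The p53 target list, which also holds Cdkn1a, had 32 of 37 kept and a median of 0.09. Plk2, a p53-induced kinase, had 7.87, 7.30, 5.43 and 6.88, and Trp53inp1 had 7.11, 7.03, 7.83 and 6.04. The members past 2-fold therefore lay on both sides, 2 higher and 1 lower. DNA repair genes had 38 of 45 kept and a median of 0.18, with Fancb, of the Fanconi core complex, at 6.02 and 7.35 as the only one past 2-fold. The counts of these lists stand beside 0.74% of all kept genes at least 2-fold higher and 2.63% lower.

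Growth and metabolism lists differed little in size. Oxidative phosphorylation had 54 of 58 genes kept, 42 with a difference above 0, a median of 0.14 at day 8 and -0.12 at basal, and a range of -0.34 to 0.43. Uqcrfs1, the Rieske protein of complex III, had 7.02, 6.96, 7.51 and 7.94. Ribosome biogenesis had 39 of 42 kept and 34 above 0, with a median of 0.15 and Rrp12, a processing factor of ribosomal RNA, at 7.13, 7.29, 7.13 and 8.20. Glycolysis had a median of 0.13, with Hk3, a hexokinase of myeloid cells, 2.07-fold lower (8.09 and 7.04), or just under 2-fold after quantile normalization. In cholesterol and lipid synthesis the median was 0.15, Lss, lanosterol synthase, was 0.92 higher and Scd1, a fatty acid desaturase, was lower by at least 1.34-fold. The antioxidant and iron list had 24 of 29 kept, and Slc40a1, the iron exporter ferroportin (6.97 and 4.87), and Gsr, glutathione reductase (9.09 and 7.70), were lower. Scd1 and Slc40a1 were kept only through Ctrl day 8, so a lower AMKO value is built in for both. None of these medians lay further than 0.10 from the 0.06 over all kept genes, most of which also lay above 0.

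Inflammatory and interferon genes differed in both directions. The NF-kappaB list had 26 of 30 kept and a median of 0.15. Ptgs2 was past 2-fold higher and 3 genes past 2-fold lower, against 0.74% and 2.63% of all kept genes. These 3 were Il1b, an inflammatory cytokine (4.35, 3.69, 7.22 and 4.02), and the chemokines Ccl3 (6.33, 5.84, 6.76 and 4.66) and Ccl5 (6.64, 6.54, 7.60 and 6.38). Il1b also stands in the late neutrophil list and was kept only through Ctrl day 8, so a lower AMKO value is built in for it. The interferon list had 42 of 52 kept, a median of 0.12 and none past 2-fold. Oas3, a sensor of double-stranded RNA, had 6.89, 6.97, 6.86 and 7.80, while Gbp4, a GTPase, had 6.17 and 5.47 at day 8. The median was 0.01 for ER stress and ATF4 genes (-0.02 after quantile normalization), 0.16 for apoptosis genes of the BCL2 family and 0.14 for TGF-beta and BMP genes, with Thbs1 the only gene past 2-fold in these 3 lists. Stromal genes had 11 of 27 kept with a median of 0.19. Skeletal muscle genes had a median of -0.26 at day 8, and their difference was larger at basal, with a median of -1.81, where the Ctrl array had a median level of 7.45 and the other 3 arrays 5.60 to 5.76.

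**Figure D5:**
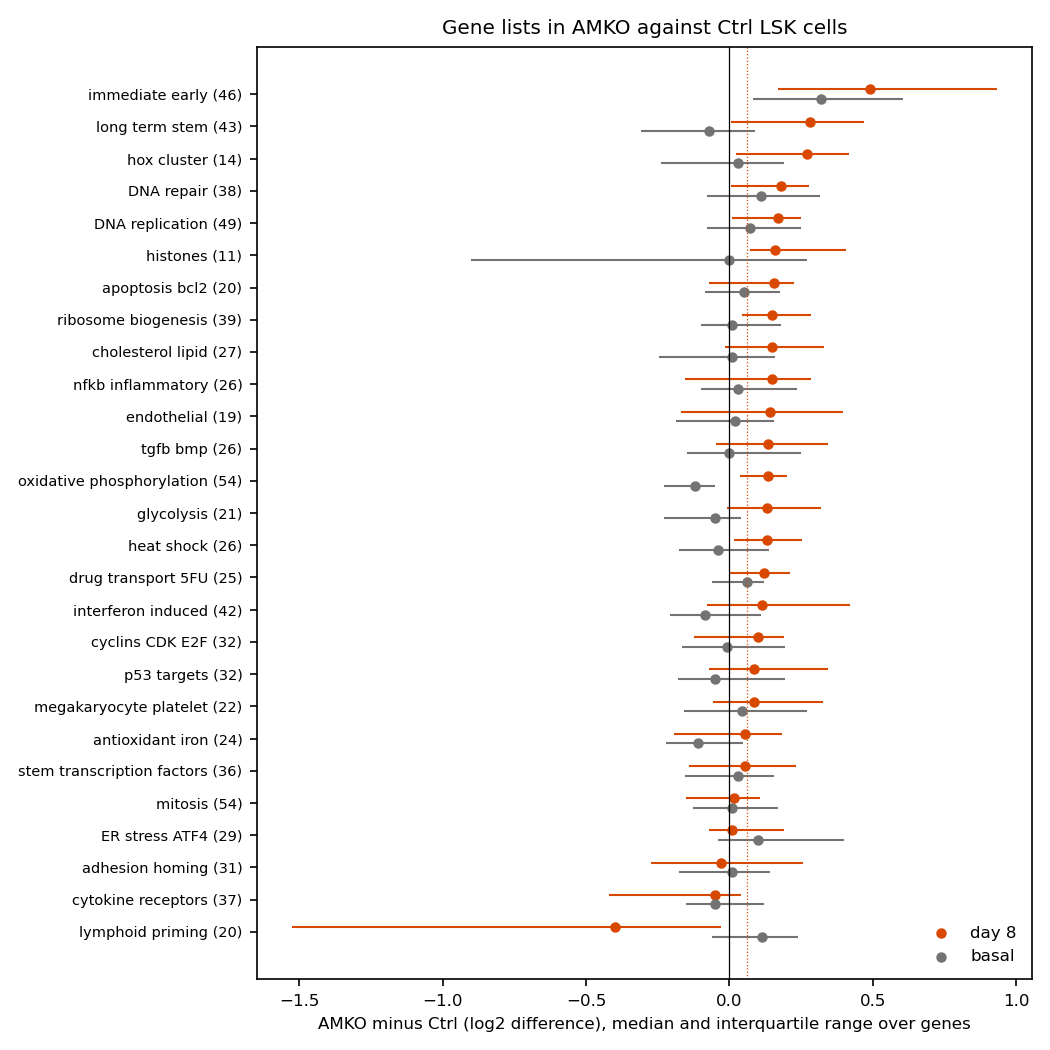
Median AMKO minus Ctrl log2 difference of 27 gene lists at day 8 (orange) and basal (grey), with bars from the 25th to the 75th percentile over the kept genes of a list and the number of kept genes in brackets. The bars are a spread over genes and not an error, and the dotted line marks the day 8 median of all kept genes (0.06). Of the lists shown, immediate early (0.49) and lymphoid priming (-0.40) lie at the ends. In lymphoid priming 6 of 20 kept genes were kept only through Ctrl day 8. Not shown are the lists taken apart and the primary granule, eosinophil, dendritic, T and NK, erythroid, stromal, muscle, stem and progenitor marker, lineage cocktail and sex-linked lists.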

How the data were processed

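RNA was measured on 4 Affymetrix arrays, 1 per group, from LSK cells flash-frozen after sorting. The authors' deposited table holds 1 value per probe set and array, read as log2 because the values lie between 1.99 and 13.43. How these values were background-corrected, normalized and scaled is not given in the sources used here. A micro column kit gave the RNA, which was labelled with biotin, per the labels' protocols. The number of arrays limits the precision, and there are no replicates.

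Of 34472 probe sets, the platform annotation pairs 23521 with 1 gene, 1814 with several genes and 9137 with none. Symbols of 23328 were updated through the RefSeq gene table of GRCm38.p6, and 193 kept the platform symbol. Only probe sets of 1 gene were named, and 1082 genes had several. Values were used as deposited, with the floor described in the report.

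There were 42 gene lists with 1202 genes, 992 of them kept and 115 without a probe set of their own. The comparison, the lists and their members were chosen with earlier results of these data known. Named genes were the 15 highest and 15 lowest with both day 8 values at or above the floor, the 6 highest and 6 lowest with 1 of these values there (both outside the lists taken apart and without predicted, microRNA, snoRNA and receptor-family symbols), up to 6 members of a list with the largest difference, the 8 members highest in Ctrl day 8 of each list taken apart, and 20 markers, of which 17 were measured. Exceptions are named as such.

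A fold for a gene under the floor on one side was taken against the floor and written as at least. Alternatives were centring on the median, quantile normalization, the floor raised to the 75th percentile or dropped, both day 8 values at the floor, the mean of probe sets, 1.5-fold and 3-fold thresholds, and counts without genes of Ctrl day 8 alone or of other cell types. Python 3.11.15, numpy 2.4.6, pandas 2.3.3 and matplotlib 3.10.9 were used, and the counting was tested on simulated data.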

Additional observations from a re-analysis of the deposited data

Results flagged for a closer look

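These results had opposite directions at day 8 and at basal, in pairs of arrays that share none. The difference between the times was not tested, since each side is 1 array. Kel, a blood group protease of red cells, differed by -1.82 at day 8 and 1.01 at basal (4.15 and 5.16 in the basal arrays of Ctrl and AMKO, 6.63 and 4.81 in those of day 8), with 3 of its 4 values under the floor, so the sizes are uncertain. Late neutrophil genes had a median difference of -2.77 at day 8 and 0.18 at basal. Eosinophil, basophil and mast cell genes had -1.07 and 0.10, lineage cocktail genes -1.99 and 0.26, and lymphoid priming genes -0.40 and 0.12. In these 4 lists the highest median level was that of the Ctrl day 8 array. Each of them held members kept only through that array, so part of this is built in. Oxidative phosphorylation genes had 0.14 at day 8 and -0.12 at basal.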

How the results depend on the processing

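The counts of 2-fold genes moved by over 1.5 times with the thresholds. The count of higher genes, 104 with and without the lists taken apart, was 51 with the floor at the 75th percentile (7.32), 66 with both day 8 values at the floor, 583 at 1.5-fold and 17 at 3-fold. The 370 lower genes became 209, 168, 749 and 209 in the same order, and 241 without genes above the floor in Ctrl day 8 alone. The 295 lower genes outside the lists taken apart became 155, 144, 660 and 144. Quantile normalization gave 96 and 351, median centring 103 and 375, no floor 119 and 399 and the mean of probe sets 100 and 364. The split was 21.9% higher as deposited and 21.5% under both scalings.

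Of 42 list medians, 0 moved by 0.25 or more under either scaling or the mean of probe sets. With both day 8 values at the floor 9 moved, all towards 0: secondary granule -1.85, late neutrophil -1.73, monocyte -0.63, early B lineage -0.47, primary granule -0.82, eosinophil, basophil and mast cell -0.30, erythroid -0.13, lineage cocktail -0.44 and lymphoid priming -0.15. Without a floor 4 moved: monocyte -0.77, early B lineage -1.61, eosinophil, basophil and mast cell -0.20 and lineage cocktail -0.55. Of 276 named genes, 10 moved with the mean of probe sets (Atp5h, Ckm, Dut, Edem1, Ighm, Igkv5-43, Krt18, Lpl, Rasgrp4 and Rb1). Signs of list medians turned only near 0: mitosis (-0.01) and ER stress and ATF4 genes (-0.02) under quantile normalization, the latter also with both day 8 values at the floor (-0.01), and adhesion and homing with the mean of probe sets (0.01). Among the named genes, the mean of probe sets turned Atp5h (0.30 to -0.05), Dut (0.28 to -0.21) and Lpl (-0.29 to 0.01), and quantile normalization took S1pr1 (0.98) and Hk3 (-1.0) just under 2-fold. A value under the floor has no order among others there, and 1 array a side leaves the spread between mice unmeasured.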

Other observations

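MicroRNA genes were chosen after their values were seen. Of 483 measured, 165 passed the floor, with a median day 8 difference of 0.04, 11 at least 2-fold higher and 12 lower (0.74% and 2.63% over all kept genes). The mature sequences below, from RefSeq (GRCm38.p6), belong to the 4 genes described first, with the seed (bases 2 to 8) in capitals. No 2 of them share a seed.
mmu-miR-23a-3p: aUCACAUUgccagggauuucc
mmu-miR-27a-3p: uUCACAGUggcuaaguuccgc
mmu-miR-340-5p: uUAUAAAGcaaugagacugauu
mmu-miR-181b-5p: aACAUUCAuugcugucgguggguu
Mir23a had 7.70 and 6.63 in the basal arrays of Ctrl and AMKO, and 4.93 and 8.51 in those of day 8, the order kept below. Mir27a, which starts 154 bases from it, had 7.97, 7.79, 6.74 and 8.38. In both, Ctrl day 8 was the lowest array and AMKO day 8 the highest. Mir340 had 8.34, 7.34, 7.38 and 5.35, and Mir181b-2 had 6.39, 4.86, 6.95 and 4.99, both lower in AMKO at each time. Mir501 and Mir532, which start 7159 bases apart on chromosome X, had 6.20 and 6.79 in AMKO day 8 and lay under the floor in Ctrl day 8 (4.21 and 4.60), while Mir188 between them differed by -0.02.

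Immunoglobulin gene symbols had 12 of 24 genes kept, with a median of -1.86 and 7 at least 2-fold lower, against 2.63% lower and 0.74% higher over all kept genes. The Ms4a family had 8 of 20 kept, a median of -0.86 and 4 lower, and C-type lectins of the Clec symbols 20 of 31 kept, a median of -0.65 and 7 lower. Several lower genes of these 3 families were kept only through Ctrl day 8, so a lower AMKO value is built in for them. They include Iglv1, Igkv1-133, Igkv4-91, Ms4a1, Ms4a4c, Ms4a6d, Clec10a, Clec12a, Clec4a2, Clec4a3, Clec4d and Clec5a. Zinc finger genes (Zfp) and solute carriers (Slc) had medians of 0.08 and 0.06, with 1 and 2 genes 2-fold higher and 3 and 6 lower among 315 and 245 kept. Dhrs3, a retinaldehyde reductase, had 9.03, 10.09, 9.02 and 7.67. It was 1 of 11 genes past 2-fold in one direction at basal and in the other at day 8, and its AMKO basal and AMKO day 8 arrays lay on either side of level Ctrl arrays. These families and genes were also chosen after their values were seen.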
